A study of Mus musculus with 13 samples.

Results

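MHC class I antigen presentation was described through 10 genes: the heavy chains H2-K1 and H2-D1, the light chain B2m, the transporter subunits Tap1 and Tap2, the loading chaperone Tapbp, the immunoproteasome subunits Psmb8, Psmb9 and Psmb10, and the transactivator Nlrc5. They were listed by name for their known roles, with earlier results of these data known, and all 10 were found among the 22656 genes of the deposited table. The cells were B16F10-TR-shApoe, a derivative of the mouse melanoma line B16F10 with a hairpin RNA against Apoe, a modification shared by both groups. The hosts were APOE2 or APOE3 knock-in mice, in which the mouse apolipoprotein E gene is replaced by a human allele. Each mouse received 100000 cells through the tail vein, and lungs were taken on day 15. Live tumour cells were sorted as GFP-positive and CD45-negative, and RNA was read with a kit that gives 1 read near the poly(A) end of a transcript. There were 8 libraries from APOE2 hosts and 5 from APOE3 hosts, with 7080308 to 13039989 recovered reads each. The labels give neither host strain, sex nor age, and do not tie a library to an animal, so p-values measure the spread between these libraries.

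Class I molecules carry peptides from inside the cell to its surface, where CD8 T cells read them. The proteasome cuts proteins, TAP1 and TAP2 pump the peptides into the endoplasmic reticulum, tapasin (Tapbp) holds an empty heavy chain beside the pump, and the loaded heavy chain leaves with beta-2 microglobulin (B2m). Interferon gamma raises nearly all of these genes through factors that include IRF1 and NLRC5, and B16 melanoma cells are known for low class I levels without interferon.

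Promoter stretches are shown for the heavy chains, for B2m and for the interval shared by Tap1 and Psmb9, because interferon and NF-kappaB are known to act on class I genes through such DNA. Sequences come from RefSeq promoters on GRCm38.p6, which held 8 of the 10 genes (all but Tap2 and Nlrc5), with 2 start sites for H2-K1. Both strands of the 250 bases before each start were searched for AANNGAAA (an interferon regulatory factor core), GGGANTCCC (the NF-kappaB palindrome of class I promoters), TTCNNNGAA (a gamma-activated sequence) and ATTGG (an inverted CCAAT box). Capitals mark matches to AANNGAAA, GGGANTCCC or ATTGG on either strand, and the marked matches do not overlap. The H2-K1 stretch (chr17:34000357-34000487, minus strand) and the B2m stretch (chr2:122147547-122147642, plus strand) lie just upstream of their start sites. The H2-D1 site (chr17:35262923-35262951, plus strand) lies upstream of the RefSeq start and inside the long first exon of a GENCODE transcript.
H2-K1: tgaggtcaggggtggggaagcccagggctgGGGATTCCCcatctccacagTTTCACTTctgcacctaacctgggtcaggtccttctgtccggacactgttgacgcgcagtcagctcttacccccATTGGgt
H2-D1: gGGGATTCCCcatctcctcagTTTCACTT
B2m: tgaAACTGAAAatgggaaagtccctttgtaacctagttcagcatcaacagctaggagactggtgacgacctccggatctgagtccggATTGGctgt

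Over 131 aligned bases, 120 (91.6%) were the same in the H2-K1 and H2-D1 promoters. Both held GGGANTCCC, which stood in 209 of 32851 promoters (0.636%). AANNGAAA was found before H2-K1, H2-D1 and B2m and in 21.3% of all promoters. TTCNNNGAA stood before Psmb8 and in 7.02% of promoters. ATTGG stood before H2-K1, H2-D1, B2m, Tap1, Tapbp and Psmb9 and in 33.8% of promoters. Tap1 and Psmb9 are transcribed away from each other from RefSeq starts at chr17:34187556 and chr17:34187330, with 225 bases between them. The end of that interval next to Psmb9 (chr17:34187332-34187361, written on the Tap1 strand) lies inside the first exon of a longer GENCODE transcript of Psmb9 and holds 1 CCAAT box, in capitals.
Tap1 and Psmb9: ttCCAATcagcggctgcgcgcggtgcaggc

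All 10 genes passed the filter of a mean of at least 10 normalised counts, which 12403 genes passed. The deposited normalised counts scale each library by a size factor. Because the kit reads transcript ends, they do not grow with transcript length, so levels were set side by side between genes. B2m was the highest at 2657 ± 372 (SD, n = 13), above 96.0% of the tested genes. The heavy chains followed, H2-D1 at 1172 ± 298 and H2-K1 at 907 ± 342. Then came Psmb10 at 410 ± 55.1 and Tapbp at 359 ± 95.4. The 5 remaining genes were lower: Tap1 at 46.1 ± 25.6, Tap2 at 29.5 ± 20.6, Psmb8 at 19.0 ± 16.4, Nlrc5 at 17.7 ± 14.0 and Psmb9 at 13.3 ± 12, the last above only 3.67% of the tested genes. B2m exceeded H2-D1, H2-K1 exceeded Psmb10 and Tapbp exceeded Tap1 in 13 of 13 libraries. Among the 5 low genes neighbours did not separate: Tap1 was above Tap2, Tap2 above Psmb8 and Psmb8 above Nlrc5 in 9 of 13 libraries each, and Nlrc5 above Psmb9 in 7. The sorted cells thus gave abundant transcripts of the surface molecule, with few of the peptide transporter and of 2 of the 3 immunoproteasome subunits. All 5 low genes, and Tapbp, overlap another gene on the opposite strand. Whether counting used strand is not given in the sources used here, and the effect on these levels was not tested.

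**Figure D1:**
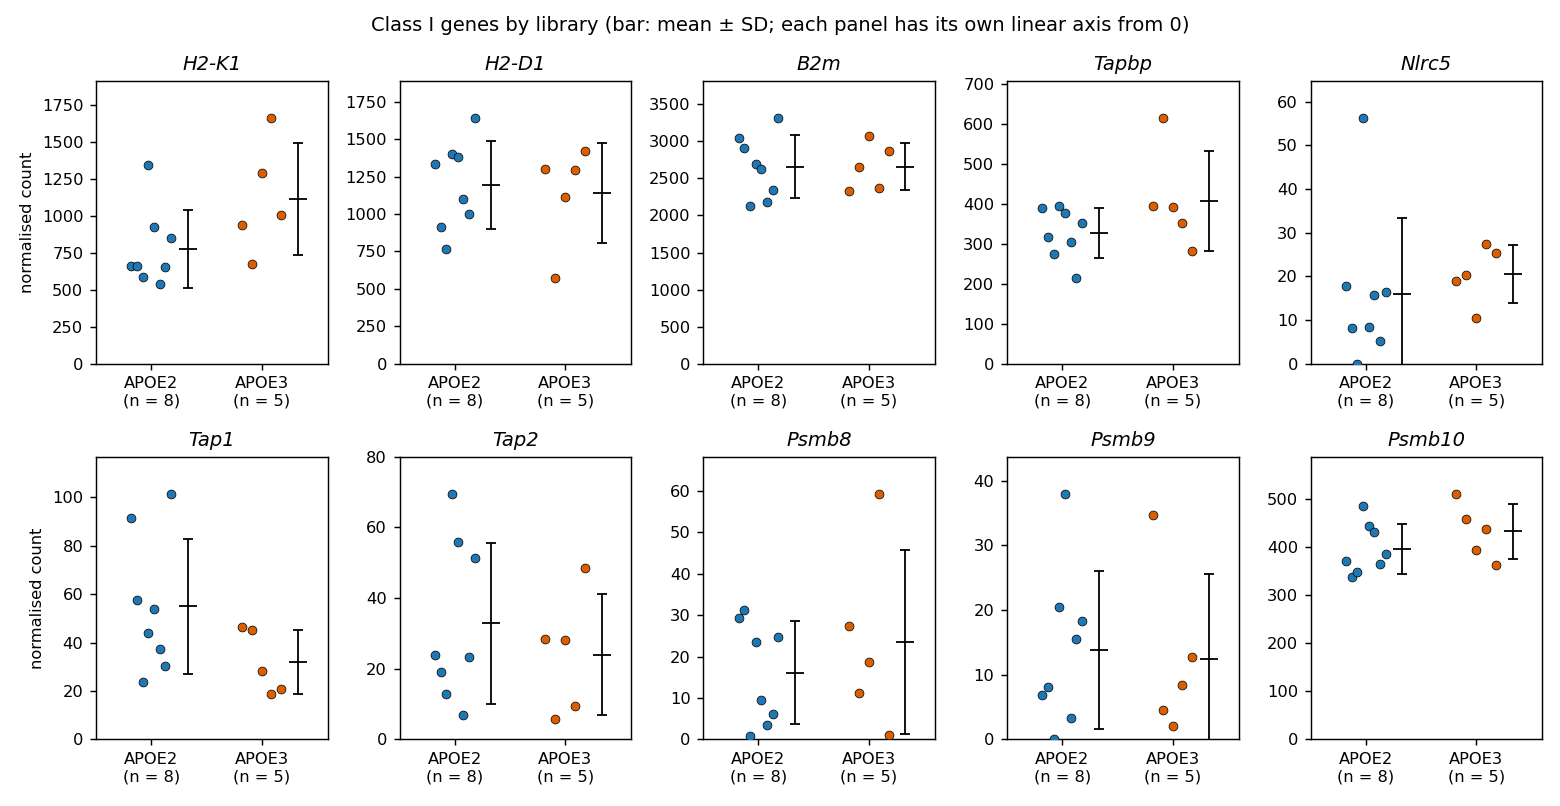
Normalised count (vertical axis, linear, a scale for each gene) of the 10 class I genes in each APOE2 (n = 8) and APOE3 (n = 5) library. Points are libraries and bars are mean ± SD, drawn no lower than 0. The groups overlap for every gene, and B2m has the same mean of 2657 in both.

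Between host genotypes none of the 10 genes passed the test. With limma and Benjamini-Hochberg adjustment over all tested genes, 98 of 12403 genes (0.79%) passed an adjusted p of 0.05, 0.411% higher and 0.379% lower in APOE2 libraries, and 0 of the 10 class I genes did. Without adjustment 1 of the 10 (H2-K1) had p under 0.05, beside 14.2% of all tested genes. The groups overlapped for all 10, while 0.984% of the tested genes had groups that did not overlap. With edgeR 1.11% and with DESeq2 2.51% of the genes passed, and again 0 of the 10. The log2 fold change, APOE2 over APOE3 on the log2(value + 1) scale, was above 0 for 4 of the 10 (and for 50.1% of all tested genes) and below 0 for 6, with a median of -0.068 against 0.000365 over all tested genes.

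Transcripts of marker genes of other lung cells were read in the sorted cells at levels that differed by genotype. These values belong beside every comparison that follows. In two-sided exact permutation tests over libraries, adjusted over 6 marker lists, the mean log2 level was lower in APOE2 libraries for leukocyte markers (-0.997, adjusted p = 0.0186), endothelium (-1.58, adjusted p = 0.0186), fibroblasts and smooth muscle (-1.17, adjusted p = 0.0186) and lung epithelium (-1.52, adjusted p = 0.0315). The epithelium call was lost in 5 of 13 fits that left out 1 library (adjusted p up to 0.0818, exact permutation), those without APOE2 replicates 5 or 8 or APOE3 replicates 3, 4 or 5. Summed leukocyte markers ranged from 37.9 to 115 CPM (counts per library scaled to a common total) in APOE2 libraries and from 101 to 187 in APOE3 libraries. Of the T cell genes in that list, Cd8a and Cd4 were at 0 in 8 of 8 APOE2 and 4 of 5 APOE3 libraries, and Cd8b1 in 5 of 8 and 5 of 5. Cd3e was at 0 in 7 of 8 and 3 of 5, with 1 read over the APOE2 and 10 over the APOE3 libraries. In the same order, Nkg7 had 23 and 21 reads and Klrd1 7 and 17. Of the 25 leukocyte markers, 10 passed the filter on low values, 9 with a log2 fold change below 0 and 1 above. The lowest were the class II genes H2-Eb1 (-2.33), H2-Ab1 (-2.07) and H2-Aa (-1.42) and their invariant chain Cd74 (-2.02). Only Cd74 and H2-Eb1 were called in limma. Fcer1g was at -0.18, S100a8 at -0.035 and S100a9 at 0.50. The leukocyte mean, and the covariate made from it, thus rest in large part on class II genes. Which cells carried the class II transcripts was not tested, so this covariate need not measure leukocytes. Epithelial markers ranged from 99.1 to 739 CPM and from 608 to 4010 CPM. Of the 18 epithelial markers 13 passed the filter, 11 with a log2 fold change below 0 and 2 above. In limma 7 were called lower: Sftpa1, Sftpb, Sftpc, Sftpd, Napsa, Slc34a2 and Lyz2. Foxj1 (1.44) and Scgb3a2 (1.99) were above 0, and neither was called. The defining genes of melanocytes were abundant everywhere, from 36100 to 52000 and from 26900 to 38400 CPM. The 10 class I genes together made 484 to 790 CPM in APOE2 and 582 to 777 in APOE3 libraries. Leukocytes, endothelium and epithelium of the lung all express class I genes, and their part in the class I values was not tested beyond the covariate fits given below. In sorted bulk RNA, fewer cells with a transcript and less of it per cell cannot be told apart.

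H2-K1 (ENSMUSG00000061232, chr17:33996017-34000347 on GRCm38, minus strand) encodes the heavy chain of H-2K, and of the 10 genes it had the smallest p. Its normalised count in APOE2 libraries ranged from 540 (replicate 6) over a median of 661 to 1342 (replicate 4). The APOE3 libraries had 940, 672, 1291, 1663 and 1003 in replicates 1 to 5. Most APOE2 libraries were low, 7 of 8 below the APOE3 mean, yet replicate 4 reached into the upper APOE3 range and APOE3 replicate 2 lay among the APOE2 values. The means were 777 ± 262 (SD, n = 8) and 1114 ± 378 (SD, n = 5). The log2 fold change was -0.51 ± 0.20 (SE), with a 95% interval from -0.93 to -0.10 and an adjusted p of 0.248 in limma (unadjusted p = 0.0176). Without APOE3 replicate 4, the library with the most H2-K1, it was -0.35 (adjusted p = 0.466 in limma). That library also held 13 reads of Cd8a, 8 of Cd3e and 473 of the class II gene H2-Aa. Its marker means of leukocytes (6.40), lung epithelium (8.25), and fibroblasts and smooth muscle (7.56) were the highest of the 13 libraries. The part of such RNA in its H2-K1 value was not tested. With the leukocyte marker mean as a covariate in limma the log2 fold change was -0.24.

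H2-D1 (ENSMUSG00000073411, chr17:35262730-35267499, plus strand) encodes the other classical heavy chain of these cells, H-2D. APOE2 libraries ranged from 769 (replicate 3) over a median of 1215 to 1642 (replicate 8). The APOE3 libraries had 1301, 571, 1116, 1297 and 1420. The APOE3 group spanned most of the APOE2 range and went below it, through replicate 2. Means were 1192 ± 293 and 1141 ± 337, and the log2 fold change was 0.09 ± 0.19, with an interval from -0.31 to 0.49 and an adjusted p of 0.875 in limma. Without APOE3 replicate 2 it was -0.14, and with the leukocyte covariate 0.37. Class I heavy chains are similar in sequence, so how reads were split between H2-K1, H2-D1 and their relatives is uncertain.

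B2m (ENSMUSG00000060802, chr2:122147686-122153083, plus strand) encodes the light chain that every class I heavy chain needs to reach the surface. It ranged from 2125 to 3317 with a median of 2663 in APOE2 libraries, and the APOE3 libraries had 2328, 2653, 3067, 2374 and 2863. The APOE3 values all fell inside the APOE2 range. Both means were 2657, with SDs of 424 and 316. The log2 fold change was -0.0082 ± 0.12, and its interval from -0.25 to 0.24 leaves room for levels between 0.839 and 1.18 times those of APOE3 libraries (adjusted p = 0.985 in limma).

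The ratio of the heavy chains was looked at after the single genes, so it is given without a test. In APOE2 libraries H2-K1 stood at 0.492 to 0.958 of the H2-D1 count, with a median of 0.663, and so below H2-D1 in all 8. In APOE3 libraries the ratio was 0.707 to 1.282, with a median of 1.16. In 3 APOE3 libraries H2-K1 was above H2-D1. The mean log2 ratio was -0.64 ± 0.34 (SD, n = 8) against -0.033 ± 0.42 (SD, n = 5), a difference of -0.60 that ran from -0.72 to -0.51 as libraries were left out in turn. A ratio within a library does not depend on library scaling, but it does depend on how reads were split between these similar genes.

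Tap1 (ENSMUSG00000037321, chr17:34187553-34197225, plus strand) encodes a subunit of the peptide pump of the endoplasmic reticulum. Its APOE2 libraries ranged from 23.9 (replicate 3) over a median of 48.9 to 102 (replicate 8), and the APOE3 libraries had 46.3, 45.2, 28.1, 18.8 and 20.8. The 4 highest values were all from APOE2 libraries and the lowest pair from APOE3 libraries, and the rest were mixed. Means were 55.0 ± 28.1 and 31.9 ± 13.2, the highest positive log2 fold change of the 10 at 0.71 ± 0.41, with an interval from -0.13 to 1.55 and an adjusted p of 0.439 in limma. With the leukocyte covariate it was 1.23 (adjusted p = 0.698 in limma). Its annotated span overlaps Psmb9 on the opposite strand, and whether counting used strand is not given in the sources used here.

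Tap2 (ENSMUSG00000024339, chr17:34203527-34216321, plus strand), the partner subunit, was lower and more scattered. APOE2 libraries ranged from 6.77 over a median of 23.6 to 69.6, and APOE3 libraries had 28.4, 5.65, 28.1, 9.41 and 48.6. In log2 the fold change was 0.45 ± 0.60, with an interval from -0.78 to 1.69 and an adjusted p of 0.778 in limma. It was 0.062 without APOE3 replicate 2. With the leukocyte covariate it was 0.96. The gene had 5 to 68 reads a library, and its coefficient of variation between libraries was 69.6% and 71.8% in the 2 groups, against 18.3% from counting. It overlaps Gm20496 and Gm15821 on the opposite strand. The ratio of Tap1 to Tap2 ran from 0.638 to 4.92 in APOE2 and from 0.440 to 6.95 in APOE3 libraries, so the groups covered each other.

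Tapbp (ENSMUSG00000024308, chr17:33915899-33929292, plus strand) encodes tapasin, which tethers the heavy chain to the pump while peptides are tried. APOE2 libraries ranged from 215 (replicate 7) over a median of 335 to 394, and APOE3 libraries had 395, 616, 392, 353 and 283. The APOE3 mean was above each of the 8 APOE2 values, but APOE3 replicates 3, 4 and 5 fell inside the APOE2 range. Means were 328 ± 62.6 and 408 ± 125, and the log2 fold change was -0.29 ± 0.18, with an interval from -0.67 to 0.09 and an adjusted p of 0.487 in limma. Without APOE3 replicate 2 it was -0.13. Zbtb22 overlaps it on the same strand.

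The immunoproteasome is a form of the proteasome in which the subunits encoded by Psmb8, Psmb9 and Psmb10 take the places of those encoded by Psmb5, Psmb6 and Psmb7, and its cuts favour peptides that class I molecules bind. Psmb8 (ENSMUSG00000024338, chr17:34197721-34201454, plus strand) ranged from 0.919 over a median of 16.5 to 31.3 in APOE2 libraries, and the APOE3 libraries had 27.4, 11.3, 18.7, 59.3 and 1.16. The highest value was in APOE3 replicate 4, and the lowest of each group rested on 1 read. That library also had the highest marker means of leukocytes, lung epithelium, and fibroblasts and smooth muscle, a link that was not tested. The log2 fold change of Psmb8 was -0.39 ± 0.83, with an interval from -2.11 to 1.33 and an adjusted p of 0.877 in limma. It was 0.10 without APOE3 replicate 4 and 1.49 with the leukocyte covariate (adjusted p = 0.799 in limma). Gm20496 overlaps Psmb8 on the opposite strand.

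Psmb9 (ENSMUSG00000096727, chr17:34181987-34187764, minus strand) ranged from 0 over a median of 11.8 to 38.0 in APOE2 libraries, and the APOE3 libraries had 34.8, 4.52, 2.08, 8.47 and 12.7. The 0 in APOE2 replicate 3 allows up to 2.76 normalised counts (3 reads), a limit that covers counting error only. Its log2 fold change of 0.03 ± 0.87 had an interval from -1.77 to 1.84 (adjusted p = 0.992 in limma), wide enough for a marked rise or a marked fall. With the leukocyte covariate it was 1.04. The coefficient of variation between libraries was 87.9% and 105% in the 2 groups, against 27.3% from counting.

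Psmb10 (ENSMUSG00000031897, chr8:105935735-105938444, minus strand) stood apart in level from the other immunoproteasome subunits. APOE2 libraries ranged from 337 over a median of 378 to 485, and APOE3 libraries had 511, 458, 393, 438 and 363. The groups overlapped over most of their range. Means were 396 ± 52.2 and 433 ± 57.3, and the log2 fold change was -0.13 ± 0.14, with an interval from -0.42 to 0.16 and an adjusted p of 0.724 in limma.

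**Figure D2:**
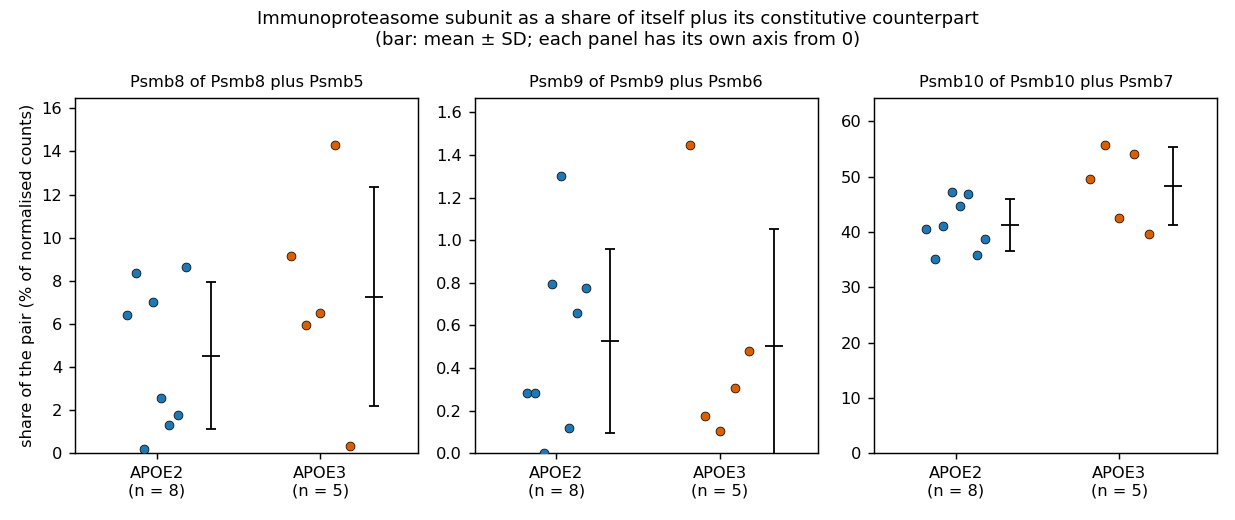
Share of each immunoproteasome subunit in the normalised counts of itself plus its constitutive counterpart (vertical axis, %), by library. Points are libraries, bars are mean ± SD drawn no lower than 0, with APOE2 n = 8 and APOE3 n = 5. Psmb10 makes 35.1% to 55.8% of its pair, while Psmb9 stays at or below 1.45% of its own.

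Set against the subunit it replaces, each immunoproteasome gene gave a different picture. Psmb10 made 35.1% to 47.3% of the Psmb10 plus Psmb7 counts in APOE2 libraries (median 40.8%) and 39.5% to 55.8% in APOE3 libraries (median 49.5%). Psmb8 made 0.207% to 8.63% of its pair with Psmb5 (median 4.50%) and 0.365% to 14.3% (median 6.52%). Psmb9 made 0% to 1.30% of its pair with Psmb6 (median 0.472%) and 0.104% to 1.45% (median 0.308%). Transcripts of the constitutive catalytic subunits therefore dominated in 2 of the 3 pairs in both groups.

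The log2 ratio of each pair was compared by two-sided exact permutation over the 1287 ways to divide 8 and 5 libraries, with adjustment over 3 ratios. For Psmb10 to Psmb7 the APOE2 libraries averaged -0.51 ± 0.28 (SD, n = 8) and the APOE3 libraries -0.10 ± 0.41 (SD, n = 5), so APOE2 minus APOE3 was -0.41 (exact p = 0.0559, adjusted p = 0.168). The ratios of Psmb8 to Psmb5 differed by -0.70 (exact p = 0.474, adjusted p = 0.711), by -1.47 without APOE3 replicate 5 and by -0.27 without APOE2 replicate 3. Those of Psmb9 to Psmb6 differed by -0.054 (exact p = 0.953, adjusted p = 0.953), by 0.43 without APOE2 replicate 3 and by 0.44 without APOE3 replicate 1. None of the 3 differences passed the threshold, and the smallest p the design allows is 0.000777. As to the constitutive partners, the log2 fold changes were 0.28 for Psmb7, 0.31 for Psmb5 and 0.09 for Psmb6, with adjusted p of 0.357, 0.447 and 0.751 in limma. Nek6 overlaps Psmb7 on the opposite strand.

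Nlrc5 (ENSMUSG00000074151, chr8:94434356-94527272, plus strand) encodes the transactivator that drives the promoters of class I genes. APOE2 libraries ranged from 0 (replicate 3) over a median of 12.1 to 56.3 (replicate 4), and APOE3 libraries had 19.0, 20.3, 10.4, 27.3 and 25.5. Of the APOE2 libraries 7 lay below the APOE3 mean on the log2 scale, 4 of them below every APOE3 library, and replicate 4 lay above every other library. Means were 16 ± 17.4 and 20.5 ± 6.62, and the log2 fold change was -0.94 ± 0.76, with an interval from -2.51 to 0.62 and an adjusted p of 0.606 in limma. It was -0.46 without APOE2 replicate 3, -0.35 in edgeR and -0.36 in DESeq2. It was 0.49 with the leukocyte covariate. A non-coding gene, 9330175E14Rik, overlaps it on the opposite strand.

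The spread between libraries of 1 genotype also set members apart. For H2-K1 the within-group SD of log2 values was 0.45, against a median of 0.23 over the 500 genes nearest in level, and 97.8% of those genes varied less. H2-D1 was alike, with 0.44 against 0.22 and 96.2% varying less. B2m varied like its neighbours (0.21 against 0.20), and Psmb10 less than most of them (0.19 against 0.29, with 7.0% varying less). These are descriptions, with no test. By library, APOE2 replicate 3 was above the median over libraries in 0 of the 10 genes and the lowest in 4. APOE2 replicate 4 and APOE3 replicate 1 were above the median in 9 genes, and APOE2 replicate 8 was the highest in 3. APOE2 replicate 3 also stood apart more widely: it had the fewest genes with reads, 14026, at 9296178 reads, and of all libraries the lowest marker means of leukocytes, lung epithelium, endothelium, and fibroblasts and smooth muscle.

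**Figure D3:**
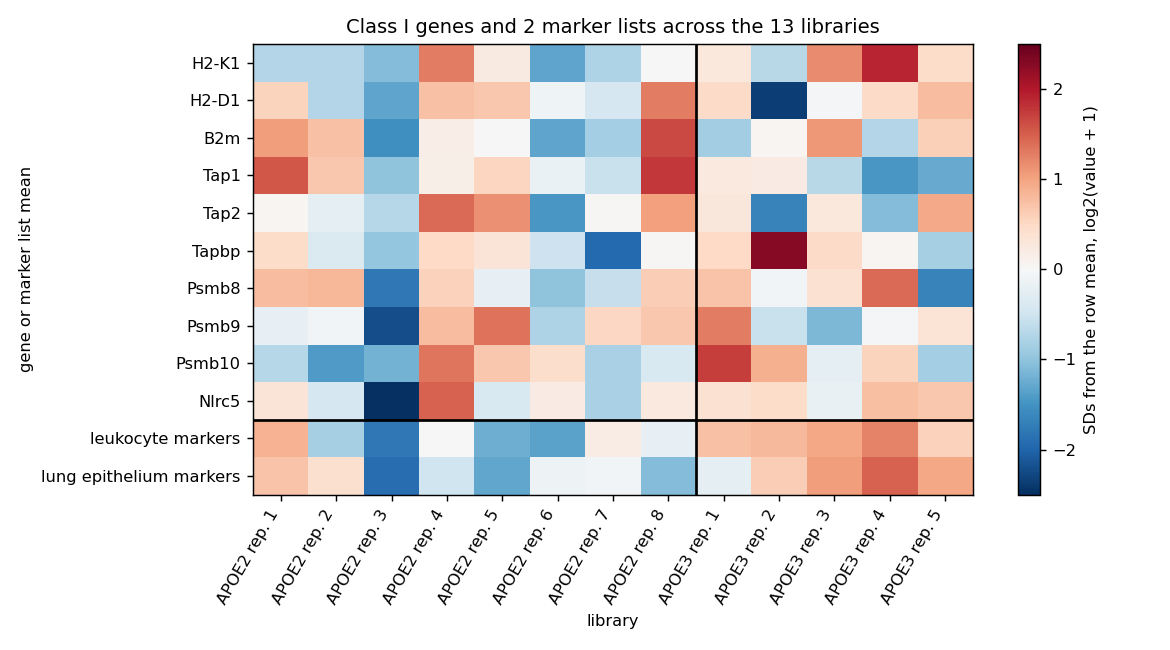
Standardised log2(value + 1) of the 10 class I genes and of the leukocyte and lung epithelium marker means (rows), in each of 13 libraries (columns, 8 APOE2 left of the line and 5 APOE3 right of it). Colour gives SDs from the row mean. APOE2 replicate 3 is above the median in 0 of 10 class I genes, and both marker rows are low there.

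Over all 13 libraries no pair of class I genes passed a test of varying together from library to library. Without the 2 farthest libraries 1 pair did. After subtraction of the genotype means, 41 of 45 pairs had a Pearson r above 0, with a median of 0.397. Taken by genotype, r was above 0 for 44 of 45 pairs over the 8 APOE2 libraries and for 19 of 45 over the 5 APOE3 libraries, a difference that was not tested. These counts were not set beside those of other gene pairs. They also depend on single libraries: in APOE2 replicate 3, 0 of the class I genes were above their median over libraries. A permutation test within genotype gave p under 0.05 for 8 pairs and 0 after adjustment over 45. The smallest p belonged to H2-D1 with Tap2, with r = 0.717 (permutation p = 0.00684, n = 13) and Spearman rho = 0.786 (permutation p = 0.0029). Its adjusted p was 0.1925 for r and 0.1305 for rho, and r was 0.586 without APOE2 replicate 3 and APOE3 replicate 2. Tap1 with Tapbp had r = 0.684 (permutation p = 0.00947, n = 13, adjusted p = 0.1925), and 0.720 without APOE2 replicate 8 and APOE3 replicate 4. H2-K1 with H2-D1 had r = 0.655 (permutation p = 0.0251, n = 13, adjusted p = 0.1925), and 0.719 without replicate 4 of each group. H2-K1 with Tap2 had r = 0.598 (permutation p = 0.0445, n = 13, adjusted p = 0.2501). Without replicate 4 of each group its r was 0.844, the highest of the pairs with 2 libraries left out. These pairs share libraries, and H2-K1 and H2-D1 may also share reads.

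Over all 13 libraries no relation between a class I gene and a marker list passed the test, while without the 2 farthest libraries 1 did. Of 60 relations between a class I gene and a marker list, 5 had p under 0.05 and 0 passed adjustment. Psmb8 with the leukocyte mean had r = 0.606 (permutation p = 0.0191, n = 13, adjusted p = 0.414) and Spearman rho = 0.50, and r was 0.350 without APOE2 replicates 3 and 6. Nlrc5 with the fibroblast and smooth muscle mean had r = 0.653 (permutation p = 0.00533, n = 13, adjusted p = 0.320) and rho = 0.604, and r was 0.755 without APOE3 replicates 3 and 4.

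Among all tested genes outside the lists, those closest to the mean of the 10 standardised genes over 13 libraries, genotype means removed, were Pcgf1 (r = 0.930), Prkca (0.899), Klhl18 (0.873), Tsacc (0.855), Rab30 (0.855) and Zfp827 (0.845). For single genes the closest were Vwa5a for H2-K1 (0.852), Mlx for H2-D1 (0.921), Adar for B2m (0.966), Nfkbib for Tap1 (0.851), C77080 for Tap2 (0.921), Tnks1bp1 for Tapbp (0.890), Zfp58 for Psmb8 (0.911), Meis3 for Psmb9 (0.931), Scoc for Psmb10 (0.882) and Flii for Nlrc5 (0.890). They were picked as the highest among all tested genes outside the list and are given as a description.

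The other genes of peptide processing and loading, 11 in all, had 0 called in either direction, with 6 log2 fold changes above 0, 5 below and a median of 0.028. Psme2, a subunit of the interferon-inducible PA28 cap of the proteasome, came closest. Its APOE2 libraries ranged from 232 over a median of 393 to 555, and the APOE3 libraries had 225, 201, 239, 141 and 260. Only APOE2 replicate 3 lay inside the APOE3 range. The means were 381 ± 107 and 213 ± 45.8, and the log2 fold change was 0.81 ± 0.20 with an adjusted p of 0.0587 in limma. It passed the threshold with edgeR (adjusted p = 0.0435) and with DESeq2 (adjusted p = 0.00823), and in 7 of 28 alternative fits in all. Psme2b, a near copy in the annotation, may share its reads. Psme1, which encodes the partner subunit of the same cap, had a log2 fold change of -0.11 (adjusted p = 0.779 in limma), and Emc9 overlaps it on the opposite strand. The ratio of Psme2 to Psme1, looked at after the single values, was 0.855 to 1.64 in APOE2 libraries (median 1.24) and 0.438 to 0.729 in APOE3 libraries (median 0.688). The 2 groups did not meet in this ratio, and the difference in log2 was 0.92. Psme2 was named for its small p, so the gap in the ratio is no separate result. Lnpep, an aminopeptidase that can trim peptides in endosomes, was next at -0.44 ± 0.15 (adjusted p = 0.177 in limma).

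**Figure D4:**
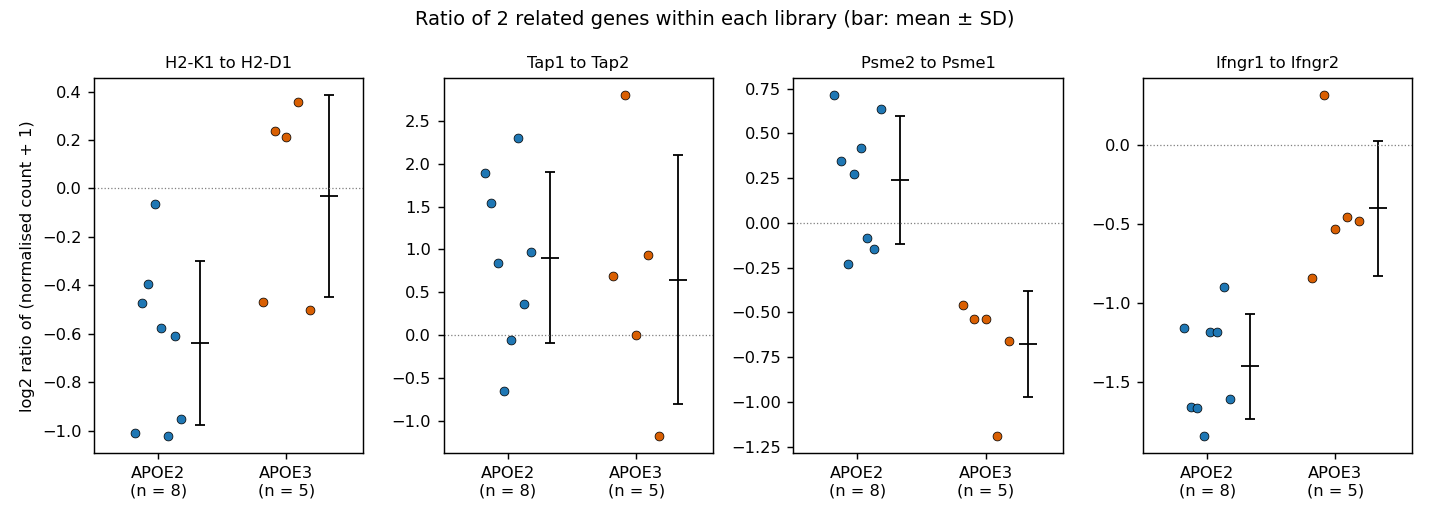
Log2 ratio of 2 related genes within each library (vertical axis, normalised count + 1, a scale for each panel). Points are libraries and bars are mean ± SD, with APOE2 n = 8 and APOE3 n = 5. The groups lie apart for Psme2 to Psme1 and for Ifngr1 to Ifngr2 and overlap for H2-K1 to H2-D1 and Tap1 to Tap2. The ratios were chosen after values were seen, and none was tested or set beside the ratios of other gene pairs.

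Of 24 listed class Ib heavy chains and class I-like genes, 20 were in the table and 6 passed the filter, with 0 called. H2-Q7, a Qa-2 heavy chain, had 9.49 ± 7.58 (SD, n = 8) against 30.8 ± 22.6 (SD, n = 5), a log2 fold change of -1.52 with an adjusted p of 0.408 in limma. It was 0.15 with the lung epithelium covariate. Hfe, a class I-like regulator of iron uptake, had a log2 fold change of -0.23 (adjusted p = 0.650 in limma). H2-Q5, H2-Q6 and H2-Q10 had reads in APOE3 libraries and 0 in all 8 APOE2 libraries. H2-Q5 had 17 reads in APOE3 replicate 1. H2-Q6 had 2, 11 and 10 in replicates 2, 3 and 4. H2-Q10 had 23 in replicate 4, where H2-T10 had 18. Reads in APOE2 libraries alone were fewer, 2 of H2-Q1 and 1 each of H2-T24 and H2-M2, and Cd1d1, a lipid-presenting relative, had 101 reads over the APOE2 and 17 over the APOE3 libraries. These few reads are of genes alike in sequence, and their split among them is uncertain.

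Another list held genes that lower class I at the cell surface. Of 4 such genes 0 were called, 2 above 0 and 2 below, with a median of 0.0068. Wwp2, a ubiquitin ligase, had a log2 fold change of -0.39 ± 0.16 (adjusted p = 0.281 in limma). Tmem127, which brings such ligases to class I, was at 0.06 (adjusted p = 0.893 in limma).

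Regulators and interferon signalling genes, 28 listed and 27 past the filter, likewise had 0 called, 14 above 0 and 13 below, with a median of 0.0047. Ifngr1, the ligand-binding chain of the interferon gamma receptor, had 140, 87.8, 121, 92.1, 128, 151, 134 and 97.0 in APOE2 libraries and 163, 179, 185, 208 and 193 in APOE3 libraries. Every APOE2 library was below every APOE3 library, for this gene alone of the 27. Over all tested genes, 0.984% had groups that did not overlap. The log2 fold change was -0.66 ± 0.20 (unadjusted p = 0.0035, adjusted p = 0.134 in limma), and DESeq2 gave an adjusted p of 0.0496. Ifngr2, the signalling chain, had a log2 fold change of 0.34 (adjusted p = 0.394 in limma). The ratio of Ifngr1 to Ifngr2, looked at after the single values, was 0.279 to 0.536 in APOE2 libraries (median 0.384) and 0.559 to 1.24 in APOE3 libraries (median 0.718), with no overlap. Ifngr1 alone already had none, so the ratio is no separate result. With the leukocyte marker covariate the log2 fold change of Ifngr1 was -0.67 and with the lung epithelium covariate -0.58 (adjusted p = 0.664 and 0.595 in limma). Both covariates themselves differed by genotype, and the part of other cells in the Ifngr1 values was not tested beyond these fits. Jak2, the kinase bound to IFNGR2, was at -0.42 ± 0.17 (adjusted p = 0.249 in limma).

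Factors that act on class I promoters were named singly as well. Irf1, a transcription factor raised by interferon gamma, had a log2 fold change of -0.055 (adjusted p = 0.934 in limma), and Rfx5, part of the complex through which NLRC5 reaches DNA, was at -0.058 (adjusted p = 0.910 in limma). The 95% interval of Irf1 ran from -0.48 to 0.36.

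Interferon-response genes, of which 20 of 22 listed passed the filter, had 0 called, with 14 log2 fold changes above 0, 6 below and a median of 0.18. Ifit3 was at 0.52 ± 0.25 (adjusted p = 0.344 in limma) and Oas1a at 1.25 ± 0.63 (adjusted p = 0.373 in limma). Both are antiviral genes of the type I interferon response. Cd274, which encodes the checkpoint ligand PD-L1 and is raised by interferon gamma, was at -0.27 with an interval from -1.67 to 1.14 (adjusted p = 0.901 in limma).

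**Figure D5:**
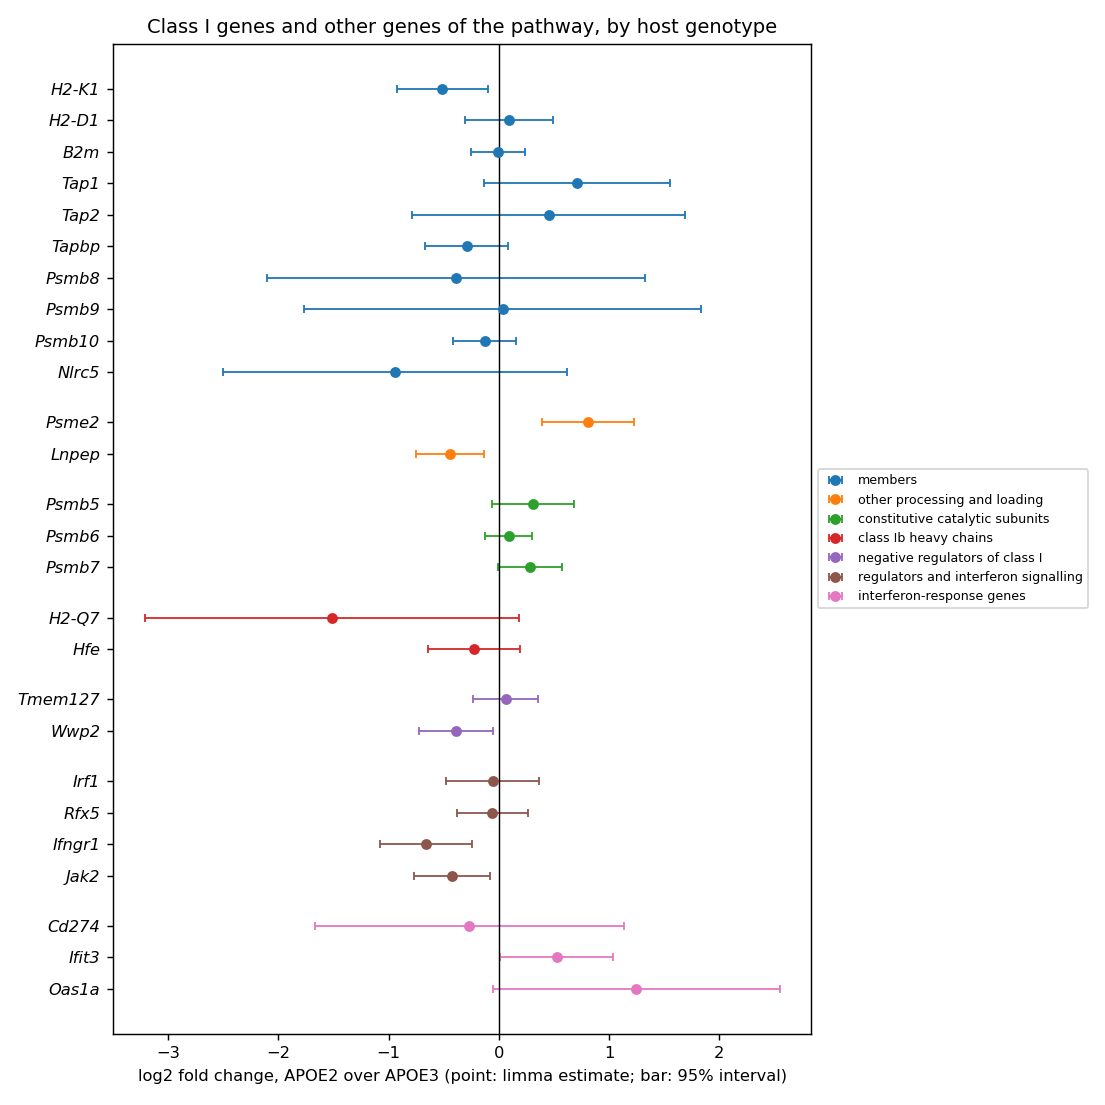
Log2 fold change, APOE2 over APOE3 (horizontal axis, limma estimate with its 95% interval), for the 10 class I genes and the named genes of 6 other lists. The intervals of 9 of the 10 class I genes include 0, and that of H2-K1 runs from -0.93 to -0.10 and its adjusted p is 0.248.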

How the data were processed

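The deposited signal is a normalised count for every gene in each library: the authors divided read counts by a size factor, per the file headers and the values. Genome build mm10, STAR 2.6.0, featureCounts and DESeq2 1.28.1 are listed per the submitters' processing notes; strand setting and annotation are not given in the sources used here. Divided by 1 constant per library, 100% of the values above 0 came out whole (tolerance 0.001 of a read), and reads recovered in this way served for depth, edgeR 4.0.16 (138 genes called) and DESeq2 1.42.0 (311 called). Libraries of a group differed by more than counting noise (lowest chi-square per degree of freedom 13.0), and none was counted as a duplicate.

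Symbols came from GENCODE M21 (22649 of 22656 identifiers matched). Genes with a mean of at least 10 were compared with limma 3.58.1 in R 4.3.3 on log2(value + 1), with an intensity trend. The tests were two-sided, with Benjamini-Hochberg adjustment over 12403 genes. This pseudocount draws low values together, yet changes of low genes are not always understated. For Nlrc5 the change was larger in limma than in edgeR or DESeq2. Intervals are 95%. Reads are not independent molecules, so read limits cover counting error only. Single values were compared by exact permutation, correlations by 100000 permutations within genotype (20000 for those without 2 libraries). The limma, edgeR and DESeq2 steps were tested on simulated data.

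The genes and lists were chosen with earlier results of these data known. Named were the 10 genes, the 2 with the smallest unadjusted p of each other list without a call, Psmb5, Psmb6, Psmb7, Irf1, Rfx5 and Cd274, and the genes with the highest r described in the text; 1 further gene of the rule entered the counts and is not reported here. Psme1, Ifngr2, the 4 within-library gene ratios and the class Ib genes with few reads were added after values were seen. The marker lists were leukocyte, lung epithelium, endothelium, fibroblast and smooth muscle, erythroid (log2 difference 0.28, adjusted p = 0.713, exact permutation) and melanocyte (0.11, adjusted p = 0.116, exact permutation). Alternatives changed the pseudocount, filter, scaling, variance model, test, libraries and covariates.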

Additional observations from a re-analysis of the deposited data

Results flagged for a closer look

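Each of 66 groups of values was searched for a library far from the rest, and 5 were found where chance gives 3.3. The Nlrc5 count of APOE2 replicate 4 was 56.3, with the nearest APOE2 library at 17.7. Oas1a in APOE3 replicate 2 was at 37.3, with the next at 8.10. Rfx5 in APOE2 replicate 5 was low at 297, with the next at 395. The log2 ratio of Psmb8 to Psmb5 in APOE3 replicate 5 was -7.20, against -3.87 in the nearest library, and rested on 1 read of Psmb8. The log2 ratio of Psme2 to Psme1 in APOE3 replicate 4 was -1.19, with the nearest at -0.66.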

How the results depend on the processing

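In all 28 alternative fits 0 of the 10 class I genes were called. Of 275 single alternatives for these genes, 245 kept the sign and 30 changed it, with a lowest adjusted p of 0.09996 (H2-K1). A minimum mean of 50 left Tap1, Tap2, Psmb8, Psmb9 and Nlrc5 untested. These genes had 0 to 68 reads a library, except Tap1 with 18 to 134. The genes called over the whole table, 98 in limma, moved more: 9 with no filter on low values, 0 without the trend, 311 with DESeq2, 0 with the leukocyte covariate, 2 with the lung epithelium covariate and 9 to 228 as libraries were left out in turn. The cause was not tested.

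Replicate numbers gave no sign of pairing: same-numbered libraries correlated between -0.0628 and 0.0141, and 0 of 5 matched best with their own number. So few libraries cannot settle whether a batch was shared, and the labels give none. With the replicate block over replicates 1 to 5, 62 genes were called, against 40 for the same libraries without it, an alternative chosen after seeing the data. The block gave differences of -0.64 for Psmb8 to Psmb5, -0.21 for Psmb9 to Psmb6 and -0.38 for Psmb10 to Psmb7 (exact sign-flip test, adjusted p = 0.75, 0.75 and 0.5625; the smallest p it allows is 0.0625), and called 0 of the 10 genes.

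Signs of log2 fold changes near 0 turned as follows. Psmb9 was -0.042 with a pseudocount of 0.5, -0.000256 with equal totals, -0.083 over replicates 1 to 5 with or without the block and -0.010 with the epithelium covariate. B2m was 0.011 with TMM scaling and over replicates 1 to 5 with or without the block, 0.0016 with array weights, 0.0084 in edgeR, 0.000615 in DESeq2, 0.18 with the leukocyte and 0.098 with the epithelium covariate. With the leukocyte covariate Psmb8 was 1.49, Nlrc5 0.49, Psmb6 -0.072 and Rfx5 0.085. With the epithelium covariate Psmb8 was 0.55, Nlrc5 0.0090, H2-Q7 0.15 and Rfx5 0.11. The ratio of Psmb9 to Psmb6 was 0.012 with a pseudocount of 5. With libraries left out in turn, the ranges that crossed 0 were -0.056 to 0.046 for B2m, -0.37 to 0.51 for Psmb9, -0.14 to 0.19 for H2-D1, -1.10 to 0.10 for Psmb8, -0.15 to 0.030 for Rfx5, -0.24 to 0.023 for Irf1, -0.49 to 0.073 for Cd274, -0.39 to 0.44 for the ratio of Psmb9 to Psmb6, -0.20 to 0.79 for the ratio of Tap1 to Tap2 and -0.23 to 0.83 for the erythroid list. The melanocyte list was called without APOE3 replicate 2 (0.17, adjusted p = 0.0202, exact permutation). Without the 2 farthest libraries 1 of 45 gene pairs and 1 of 60 marker relations passed adjustment.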
